A study of Rattus norvegicus with 6 samples.

Results

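The aminoacyl-tRNA synthetases, the enzymes that join each amino acid to its transfer RNA, were followed in H9c2 cells after knockdown of the long non-coding RNA Tug1. The set was defined by gene symbol: every gene of the count table written as 1 capital letter followed by ars, with or without a final 1 or 2, together with Eprs, Farsa and Farsb. This gave 36 of the 40456 genes in the table. The 16 genes whose symbol ends in 2 code for the mitochondrial enzymes, and the other 20 were taken as cytosolic. Gars and Kars, in the cytosolic group by this rule, each code for the enzyme of both compartments. Mars2 was not analysed here.

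H9c2 is a rat cardiomyoblast line derived from embryonic heart. All cells were wild type by the labels, were kept for 5 days in medium with 1% serum and daily 1 µM retinoic acid, and were then exposed for 24 h to 25 nM of an antisense gapmer carried by Lipofectamine 2000. A gapmer is a short oligonucleotide with locked nucleic acid ends that lets RNase H cut the RNA it pairs with. The 3 control libraries came from cells given a negative control gapmer and the 3 knockdown libraries from cells given a gapmer against Tug1, so each group rests on 1 oligonucleotide sequence and 1 cell line. The labels do not say whether replicates were separate cultures, and p-values therefore measure only the spread between these libraries.

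Each synthetase recognises 1 amino acid, activates it with ATP and transfers it to the matching tRNA, which the ribosome then uses. Animal cells make proteins both in the cytosol and inside mitochondria, and most amino acids have a separate nuclear gene for the enzyme imported into mitochondria, whose own ribosomes make only a few respiratory chain subunits. Inherited defects of the mitochondrial enzymes tend to hit tissues with a high energy demand, and defects of AARS2 can cause a cardiomyopathy in infancy. Several cytosolic enzymes are held in a multisynthetase complex, and many cytosolic synthetase genes are textbook targets of ATF4, the transcription factor of the amino acid response.

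Libraries held 12978548 to 13544337 counts, and levels are given as CPM, counts scaled to library size and composition, on which 1 CPM was 12.9 to 13.8 counts. Tug1 itself had 713, 672 and 718 counts in the controls and 164, 152 and 165 counts after knockdown, a log2 fold change of -2.19. The labels call the cells cardiomyocytes, but most defining cardiomyocyte transcripts were near 0. Of 12 cardiomyocyte markers only 4 passed the filter on low counts, among them Tnnt2, while Nppb had no count in any library and Myh6 at most 1, and the summed level of the 12 was 361 to 394 CPM in the controls and 407 to 458 CPM after knockdown. All 8 skeletal muscle markers passed the filter and their summed level was 967 to 971 CPM in the controls and 1425 to 1507 CPM after knockdown. Of these markers 7 were higher and 1, Myod1, was lower (log2 fold change -0.32). Marker calls follow the rule given in the next paragraph, by which 30.8% of all tested genes were higher and 30.9% lower. Summed fibroblast markers ran from 37764 to 39463 CPM in the controls and from 32749 to 35424 CPM after knockdown. Col1a1 and Col1a2 made up most of that sum, and of the 7 fibroblast markers tested 4 were lower, 1 was higher (Dcn, log2 fold change 0.57) and 2 were not called. The cardiomyocyte sum was mostly Tnnt2 (0.24), and of the 4 tested in that list 2 were higher and 1, Pln, fell by 0.68 on the log2 scale. Smooth muscle markers summed to 959 to 1052 CPM and 1114 to 1270 CPM, immune markers to 10.8 to 12.8 CPM and 15.7 to 17.4 CPM with Ptprc and Adgre1 at 0, and endothelial markers to 3.10 to 4.47 CPM and 2.81 to 3.99 CPM, in controls and after knockdown. All these sums except the endothelial one were without overlap between the groups, and their part in the results was not tested. Of the 5 smooth muscle markers 3 were higher, and Cnn1 (-0.02) and Tagln (0.06) were not called. Acta2 (0.33) made up most of the smooth muscle sum. Fewer cells of a type and less RNA per cell cannot be told apart in such bulk libraries.

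All 36 synthetase genes were detected in every library and all passed the filter on low counts. The cytosolic genes had 551 to 8017 counts per library and the mitochondrial genes 29 to 1301, so single-gene values of the mitochondrial enzymes are less precise. The set took 0.367% to 0.373% of all counts in the controls and 0.383% to 0.398% after knockdown. Of the 16 mitochondrial genes, 11 were higher and 1 was lower after knockdown, whereas of the 20 cytosolic genes 6 were higher and 9 lower. With any 1 library left out, 8 to 10 mitochondrial genes were higher and 1 or 2 lower, and 4 or 5 cytosolic genes were higher and 7 to 9 lower. Calls rest on edgeR's quasi-likelihood test at an adjusted p under 0.05, with the Benjamini-Hochberg method over the 14216 tested genes, and this rule called 61.7% of all tested genes, 30.8% higher and 30.9% lower. In all, 27 of the 36 members were called, or 75.0%, and 17 of these were higher. For 28 members (77.8%) the control and knockdown libraries did not overlap, against 65.6% of all tested genes.

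Of the mitochondrial genes 68.8% were called higher, against 34.4% of the 8709 tested genes with a mean level in the same range, 3.94 to 94.2 CPM. The cytosolic genes were lower in 45.0% and higher in 30.0% of cases, and of the 3028 tested genes in their range of 71.1 to 559 CPM 42.7% were lower and 33.2% higher, so the cytosolic shares were near that background. The median log2 fold change was 0.44 over the mitochondrial genes, 0.00 over all tested genes and -0.04 over the cytosolic genes, the last turning to 0.01 with library totals as the scale. On that scale, which moved the median of all tested genes to 0.06, 6 cytosolic genes were lower and 6 higher. The median size of the change, regardless of direction, was 0.50 for mitochondrial, 0.20 for cytosolic and 0.34 for all tested genes. Against the control mean, the median mitochondrial gene stood at 0.44, 0.42 and 0.39 on the log2 scale in knockdown replicates 1 to 3, and at -0.02, 0.03 and 0.02 in the controls. The same median over the cytosolic genes was -0.14, 0.00 and -0.03 in the knockdown libraries, replicate 1 being the lowest, and 0.01, 0.00 and -0.01 in the controls.

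**Figure D1:**
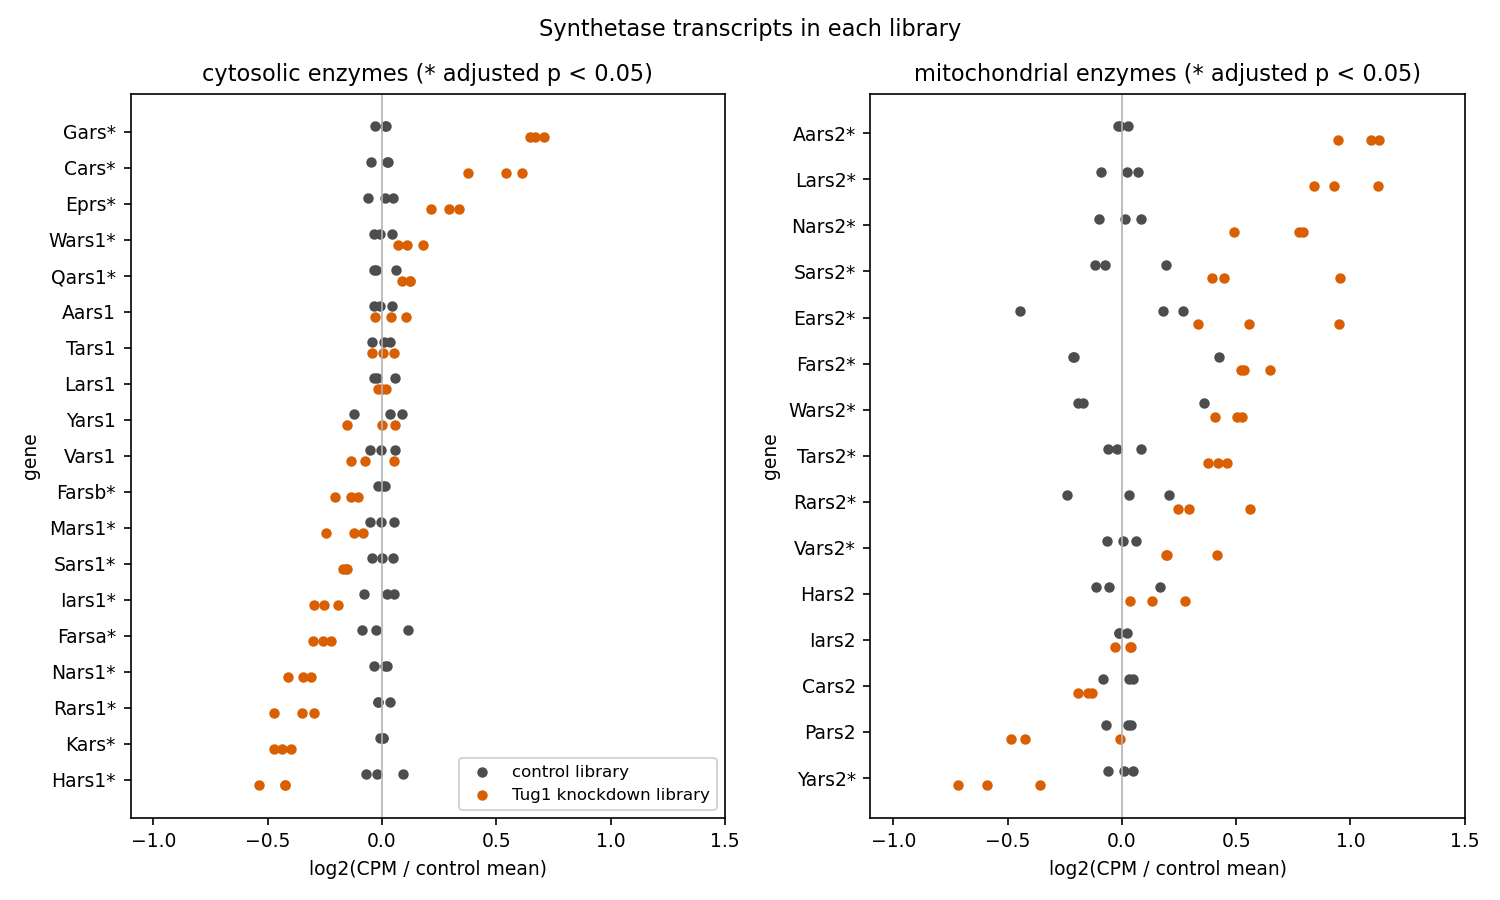
Each row is 1 of 34 synthetase genes, ordered by its log2 fold change, and each point is 1 library, given on the horizontal axis as log2 of its CPM over the mean of the 3 control libraries. Grey points are controls, orange points are Tug1 knockdown libraries, and an asterisk marks an adjusted p under 0.05; most mitochondrial genes lie to the right of their controls, while the cytosolic genes spread to both sides on this TMM scale.

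The summed level of the mitochondrial enzymes was 230.1, 233 and 234 CPM in the controls and 269.6, 271 and 277 CPM after knockdown, a ratio of 1.17. All knockdown sums lay above all control sums. The summed cytosolic level was 3559, 3548 and 3521 CPM in the controls and 3487, 3640 and 3619 CPM after knockdown, a ratio of 1.01, with overlapping groups. Iars2, the most counted mitochondrial gene, had 93.0, 93.0 and 95.1 CPM in the controls and 91.6, 96.2 and 96.1 CPM after knockdown and was not called.

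Among the mitochondrial enzymes the rise was widest for Aars2, the alanyl enzyme, which had 3.84, 3.95 and 3.86 CPM in the controls and 8.26, 7.47 and 8.46 CPM after knockdown. On the log2 scale this was a rise of 1.05 (SE 0.152, edgeR adjusted p 2.47e-06). Its control libraries lay close together, and the mean level after knockdown was 2.08 times theirs. Lars2 charges leucine, and defects of its human counterpart are a cause of Perrault syndrome, with hearing loss and ovarian failure. Lars2 had 10.0, 11.2 and 10.9 CPM in the controls and 20.4, 19.2 and 23.3 CPM after knockdown. It rose by 0.96 on that scale (SE 0.104, edgeR adjusted p 3.39e-08), again with no overlap.

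Nars2 and Tars2 rose as well. Nars2, which charges asparagine, had 6.06, 6.89 and 6.56 CPM in the controls and 9.13, 11.1 and 11.3 CPM after knockdown (log2 fold change 0.69, SE 0.134, edgeR adjusted p 1.17e-04). Tars2, the threonyl enzyme, had 16.9, 18.2 and 16.4 CPM in the controls and 22.3, 22.9 and 23.6 CPM after knockdown (log2 fold change 0.42, SE 0.0863, edgeR adjusted p 2.26e-04). The rises of Aars2, Lars2, Nars2 and Tars2 passed the threshold under every alternative analysis that was run.

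Another 6 mitochondrial rises were smaller relative to their error and each was lost under at least 1 alternative. Sars2, the seryl enzyme, had 3.30, 3.41 and 4.09 CPM in the controls and 4.71, 4.88 and 6.95 CPM after knockdown (log2 fold change 0.61, SE 0.192). Knockdown replicate 3 was the highest of its values, and without that library the log2 fold change was 0.42 with an edgeR adjusted p of 0.0834. Ears2 charges glutamate in mitochondria, also on the tRNA for glutamine. It had 3.68, 2.24 and 3.47 CPM in the controls and 4.49, 5.92 and 3.85 CPM after knockdown (log2 fold change 0.60, SE 0.215), and was not called without control replicate 2 or without knockdown replicate 2, at edgeR adjusted p-values of up to 0.133. Fars2, a single-chain phenylalanyl enzyme, had 7.21, 4.64 and 4.63 CPM in the controls and 8.41, 7.77 and 7.70 CPM after knockdown (log2 fold change 0.53, SE 0.164). Control replicate 1 stood above the other controls of Fars2, and without control replicate 2 the edgeR adjusted p was 0.0514.

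Wars2, the tryptophanyl enzyme, had 3.91, 5.65 and 3.86 CPM in the controls and 6.23, 5.84 and 6.34 CPM after knockdown (log2 fold change 0.46, SE 0.172), with control replicate 2 just under the knockdown values. It lost the call without control replicate 1, control replicate 3 or knockdown replicate 3. Rars2, the arginyl enzyme, had 5.83, 7.04 and 7.94 CPM in the controls and 10.1, 8.43 and 8.16 CPM after knockdown (log2 fold change 0.36, SE 0.145) and lost it without control replicate 1, control replicate 2 or knockdown replicate 1. Vars2 charges valine. It had 15.0, 15.6 and 14.3 CPM in the controls and 17.1, 19.9 and 17.1 CPM after knockdown (log2 fold change 0.27, SE 0.0979) and lost the call without control replicate 3 or knockdown replicate 2. For each of these genes the groups did not overlap, although in Rars2, Wars2, Ears2 and Fars2 the gap was small.

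A single mitochondrial enzyme fell. Yars2 charges tyrosine, and defects of the human gene cause a myopathy with lactic acidosis and sideroblastic anaemia. It had 16.3, 16.7 and 15.5 CPM in the controls and 12.6, 10.7 and 9.82 CPM after knockdown (log2 fold change -0.55, SE 0.1097, edgeR adjusted p 1.60e-04), and kept its call under every alternative. The remaining 4 mitochondrial genes did not pass the test. Cars2 differed by -0.16 on the log2 scale (SE 0.128, edgeR adjusted p 0.294) although its libraries did not overlap, with 8.82, 8.05 and 8.71 CPM in the controls and 7.47, 7.69 and 7.78 CPM after knockdown. Pars2, the prolyl enzyme, had 10.1, 9.37 and 10.0 CPM in the controls and 9.79, 7.03 and 7.33 CPM after knockdown (edgeR adjusted p 0.0740). Knockdown replicate 1 of Pars2 lay within the control range, and without it the log2 fold change was -0.45 with an edgeR adjusted p of 0.00930. Hars2 and Iars2 had log2 fold changes of 0.15 (SE 0.0997) and 0.02 (SE 0.0520), and both overlapped between groups. With an offset for the trend of fold change with genomic span, Hars2 stood at 0.23 (edgeR adjusted p 0.0517), and with the replicate number added as a block Hars2 was called, at 0.23 (edgeR adjusted p 0.0287).

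Among the cytosolic enzymes Gars, Cars and Eprs rose, with no overlap between groups. Gars, the glycyl enzyme of both compartments, had 145, 139.8 and 144 CPM in the controls and 228, 224 and 233 CPM after knockdown (log2 fold change 0.68, SE 0.0464, edgeR adjusted p 2.11e-11). Cars charges cysteine and had 88.4, 88.9 and 84.4 CPM in the controls and 113, 133 and 127 CPM after knockdown (log2 fold change 0.51, SE 0.0594, edgeR adjusted p 1.03e-07). Eprs is a fusion protein that carries the glutamyl and prolyl enzymes in 1 chain. It had 414, 384 and 404 CPM in the controls and 464, 505 and 489.8 CPM after knockdown (log2 fold change 0.28, SE 0.0457, edgeR adjusted p 1.31e-05). These rises were called under every alternative in which the gene was present.

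Wars1 and Qars1 rose by little. Wars1, an interferon-inducible gene in many cell types, had 218, 206 and 209.6 CPM in the controls and 221, 239 and 227 CPM after knockdown (log2 fold change 0.12, SE 0.0469, edgeR adjusted p 0.0320). It lost the call without control replicate 2, control replicate 3 or knockdown replicate 2. Qars1, the glutaminyl enzyme, had 151, 161 and 152 CPM in the controls and 168, 168 and 164 CPM after knockdown (log2 fold change 0.11, SE 0.0481, edgeR adjusted p 0.0495). It was at the threshold and lost the call when any library other than control replicate 2 was left out.

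Of the cytosolic enzymes, 9 fell. Hars1, the histidyl enzyme and the Jo-1 autoantigen of myositis, fell furthest, with 96.0, 99.01 and 107 CPM in the controls and 75.0, 69.4 and 75.1 CPM after knockdown (log2 fold change -0.46, SE 0.0578, edgeR adjusted p 3.24e-07). Kars, the lysyl enzyme of both compartments and part of the complex, had 260.0, 257 and 259.5 CPM in the controls and 197, 187 and 192 CPM after knockdown (log2 fold change -0.43, SE 0.0447, edgeR adjusted p 1.59e-08). It moved in the opposite direction to Gars, the other gene that serves both compartments. Rars1, the arginyl enzyme of the complex, had 116, 116 and 120.3 CPM in the controls and 84.6, 92.0 and 95.5 CPM after knockdown (log2 fold change -0.37, SE 0.0550, edgeR adjusted p 3.53e-06). Nars1, which charges asparagine, had 311, 320.5 and 323 CPM in the controls and 257, 239 and 250.1 CPM after knockdown (log2 fold change -0.35, SE 0.0450, edgeR adjusted p 3.98e-07). In these 4 genes every knockdown library lay well under every control.

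Farsa and Farsb code for the 2 subunits of the cytosolic phenylalanyl enzyme, and both fell. Farsa, the catalytic subunit, had 78.7, 90.5 and 82.2 CPM in the controls and 69.9, 67.8 and 71.7 CPM after knockdown (log2 fold change -0.26, SE 0.0595, edgeR adjusted p 5.34e-04). Farsb had 82.3, 81.7 and 80.7 CPM in the controls and 70.8, 74.2 and 75.7 CPM after knockdown (log2 fold change -0.15, SE 0.0542, edgeR adjusted p 0.0209) and lost the call without control replicate 1 or knockdown replicate 1. Iars1, the isoleucyl enzyme of the complex, had 85.1, 79.3 and 87.0 CPM in the controls and 68.1, 70.3 and 73.4 CPM after knockdown (log2 fold change -0.25, SE 0.0570, edgeR adjusted p 6.58e-04). The seryl enzyme Sars1 had 169, 164 and 159 CPM in the controls and 146, 147 and 148 CPM after knockdown (log2 fold change -0.16, SE 0.0478, edgeR adjusted p 0.00580). Mars1 is the methionyl enzyme and had 188, 196 and 182 CPM in the controls and 159, 178 and 173 CPM after knockdown (log2 fold change -0.15, SE 0.0511, edgeR adjusted p 0.0141). The call for Mars1 was lost without control replicate 2 or knockdown replicate 1, and with library totals as the scale Mars1, Farsb and Sars1 were not called.

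The other 5 cytosolic genes were not called, and all overlapped between groups. Aars1, the most counted member of the set, had 548, 568 and 538 CPM in the controls and 540.3, 593 and 567 CPM after knockdown (log2 fold change 0.04, SE 0.0445). Lars1, which is also known as a leucine sensor of the mTORC1 pathway, had 139, 131 and 130.1 CPM in the controls and 132, 133 and 135 CPM after knockdown (log2 fold change 0.00, SE 0.0493). Log2 fold changes were 0.00 for Tars1 (SE 0.0475), -0.03 for Yars1 (SE 0.0627) and -0.05 for Vars1 (SE 0.0548). A change in these genes is not excluded by a p above the threshold.

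For 13 amino acids the set held 1 cytosolic and 1 mitochondrial gene, and their ratio within a library does not depend on how libraries were scaled. The log2 ratio of mitochondrial to cytosolic transcript was higher after knockdown in 10 of the 13 pairs, with a median difference of 0.41. Groups did not overlap in 12 pairs, 9 with a higher and 3 with a lower ratio. The share of non-overlapping ratios among gene pairs in general was not computed, and single tested genes did not overlap in 65.6% of cases, so this count is a description. An exact permutation test over 3 against 3 libraries cannot give a two-sided p below 0.1, and all 12 pairs had that value, or 0.108 after Benjamini-Hochberg adjustment over the 13 pairs. No pair therefore passed 0.05.

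The asparagine pair differed most. Its log2 ratio was -5.68, -5.54 and -5.62 in the controls and -4.81, -4.43 and -4.47 after knockdown, a difference of 1.04 (SE 0.128), with Nars1 lower and Nars2 higher. The alanine ratio went from -7.16, -7.17 and -7.13 to -6.03, -6.31 and -6.07, a difference of 1.01 (SE 0.0888), and the leucine ratio differed by 0.96 (SE 0.107). In both of these pairs the mitochondrial gene rose and the cytosolic gene was not called. Serine (0.76, SE 0.212), arginine (0.74, SE 0.189), histidine (0.61, SE 0.0663), threonine (0.41, SE 0.0674), valine (0.32, SE 0.0279) and isoleucine (0.26, SE 0.0383) had smaller differences with no overlap. In the histidine and isoleucine pairs the cytosolic gene was lower and the mitochondrial gene was not called. Tryptophan was the pair with overlap (difference 0.36, SE 0.209, exact permutation p 0.2). Both genes of a pair were called in opposite directions for 3 amino acids, asparagine, arginine and serine, and each time the mitochondrial gene was the higher one. In 2 pairs, tryptophan among them, both genes were higher.

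Cysteine and tyrosine were among the pairs with a lower ratio after knockdown. For cysteine it was -3.33, -3.47 and -3.28 in the controls and -3.92, -4.12 and -4.03 after knockdown, a difference of -0.67 (SE 0.0802). The tyrosine difference was -0.52 (SE 0.173), with Yars2 lower and Yars1 not called.

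**Figure D2:**
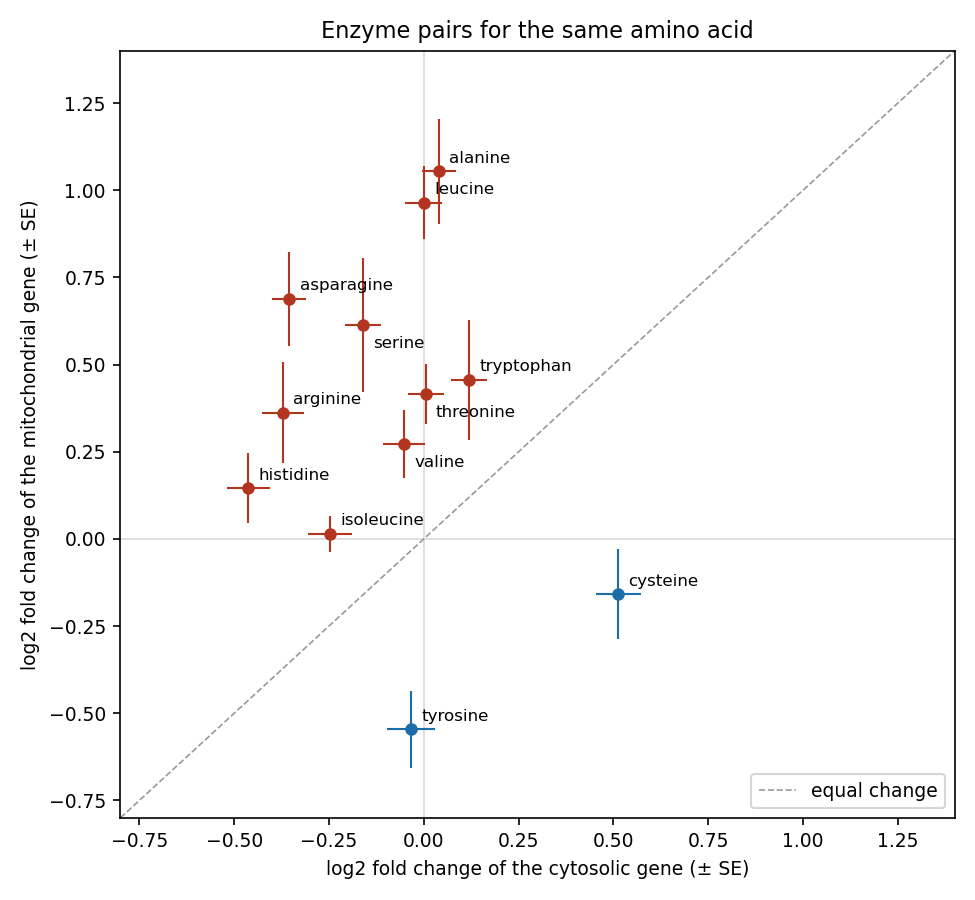
Each of the 12 points is an amino acid served by 1 cytosolic and 1 mitochondrial gene, with the log2 fold change of the cytosolic gene on the horizontal axis, that of the mitochondrial gene on the vertical axis, and bars of 1 SE. The 10 red points above the dashed line of equal change are pairs whose mitochondrial gene has the higher log2 fold change, and the 2 blue points below it are cysteine and tyrosine.

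By enzyme family rises of mitochondrial enzymes were found in both structural classes, which differ in the fold of the catalytic domain. Of the 8 mitochondrial class I genes, 5 were higher and 1 lower, and their summed level had a ratio of 1.09 between knockdown and control. Iars2, which was not called, made up most of that sum, with a mean of 93.7 of 159 CPM in the controls. Of the 8 mitochondrial class II genes, 6 were higher and none lower. Higher calls were thus 62.5% in class I and 75.0% in class II, against 34.4% of tested genes in the mitochondrial level range. The summed level of the mitochondrial class II genes was 73.6, 74.0 and 74.4 CPM in the controls and 99.6, 97.1 and 104 CPM after knockdown, a ratio of 1.36. Among cytosolic genes, 3 of 9 in class I were higher and 3 lower, and 2 of 10 in class II were higher and 6 lower. In their level range 33.2% of tested genes were higher and 42.7% lower. Eprs, which joins both classes, was counted in neither.

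Enzymes of the multisynthetase complex moved in both directions. Of its 8 enzymes, 3 were higher (Eprs and Qars1 among them) and 4 lower (Iars1, Kars, Mars1 and Rars1), and of the 12 cytosolic genes outside it 3 were higher and 5 lower. These are 37.5% and 50.0% in the complex and 25.0% and 41.7% outside it. Of the tested genes in the cytosolic level range 33.2% were higher and 42.7% lower, so these shares were near that background. The scaffold of the complex was measured as well, from a list of 3 genes of which 2 were lower and none higher. Of all tested genes 30.9% were lower. Aimp1, a scaffold protein that is also secreted as a cytokine, had 43.5, 39.1 and 38.9 CPM in the controls and 27.5, 23.4 and 25.7 CPM after knockdown (log2 fold change -0.67, SE 0.0782, edgeR adjusted p 1.26e-07). Eef1e1, the smallest scaffold protein, had 47.2, 39.0 and 40.9 CPM in the controls and 27.6, 29.7 and 31.3 CPM after knockdown (log2 fold change -0.52, SE 0.0792, edgeR adjusted p 5.48e-06). Aimp2 had a log2 fold change of 0.01 (SE 0.0820) and overlapped between groups.

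The members that carry an ATF4 composite element in their promoter were then compared with the rest. The element, searched as TGATGNAA on both strands, joins a CEBP and an ATF4 binding sequence. Promoter windows of 300 bases (250 before to 50 after the start, RefSeq, GRCr8) were present for 32 of the 36 members. The element was found in 7 of 17 cytosolic promoters (41.2%) and in 0 of 15 mitochondrial promoters, against 3.82% of all 27457 windows and 2.09% of the 10732 windows of tested genes. For each of these genes 1 match is printed here, whether or not the window holds others, with 11 bases before the element where the window allows, because only cytosolic members of the set held one. Each reads 5′ to 3′ on the strand that reads the element, in GRCr8, with the element in capitals.
Aars1, chr19:55908480-55908509, minus strand: tcagagcgctcTGATGAAAagtgacccgct
Cars, chr1:208225334-208225363, plus strand: tttccagaatcTGATGCAAccgcggcgccg
Iars1, chr17:15193658-15193687, plus strand: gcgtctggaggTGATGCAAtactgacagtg
Mars1, chr7:65023752-65023781, plus strand: ggagcccacgcTGATGCAAccggaacgggc
Nars1, chr18:60275778-60275807, minus strand: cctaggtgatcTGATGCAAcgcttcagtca
Tars1, chr2:62114811-62114840, plus strand: agctaaccagcTGATGCAAcgggacgccag
Yars1, chr5:146820190-146820212, plus strand: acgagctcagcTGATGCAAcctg

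Counted from the annotated start along the gene, the most upstream base of each element lay at 10 in Aars1, -27 in Tars1, -24 in Iars1, -17 in Mars1, -14 in Nars1, 18 in Cars and 39 in Yars1. In Nars1 and Yars1 this is the first base of the element as printed. In the others, printed on the strand opposite to the gene, it is the last. The 7 genes did not move together. Cars rose, Iars1, Mars1 and Nars1 fell, and Aars1, Tars1 and Yars1 were not called, with a median log2 fold change of -0.03. The 10 cytosolic genes with a window but no match had 3 rises, 5 falls and a median of -0.10. Cytosolic genes without a window are in neither group, among them Gars, which rose, and Rars1, which fell. The E-box CACGTG, read by MYC and USF factors, was in 5 of 17 cytosolic windows (29.4%) and 1 of 15 mitochondrial windows (6.67%), beside 9.38% of the windows of tested genes, and overlapped none of the ATF4 matches. A match is only a description of these letters in this window.

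Other transcripts of the amino acid response were mostly lower. Of 32 genes on the list, all tested, 22 were lower (68.8%) and 5 higher (15.6%), against 30.9% and 30.8% of all tested genes. In the level range of the cytosolic synthetases, which holds part of this list, 42.7% of tested genes were lower and 33.2% higher. The median log2 fold change of the list was -0.37, and 6 of the 28 with a promoter window held the element (21.4%). The 4 genes with the smallest p are named here. Slc1a5, a glutamine carrier, had 191, 190.1 and 176 CPM in the controls and 57.0, 66.1 and 60.6 CPM after knockdown (log2 fold change -1.60, SE 0.0586). Aldh18a1, which starts proline synthesis, had a log2 fold change of -0.98 (SE 0.0545), and Slc7a1, a carrier of arginine and lysine, one of -1.31 (SE 0.0792). Phgdh, the first enzyme of serine synthesis, went the other way at 1.07 (SE 0.0700). Atf4 itself, chosen here after its value was seen, had 521, 518 and 506 CPM in the controls and 425, 447 and 434 CPM after knockdown (log2 fold change -0.24, SE 0.0419, edgeR adjusted p 2.82e-05). Its transcript level says nothing of its protein, which is set largely by translation. Of the 12 sensors and eIF2 factors that control that translation, 3 were higher and 5 lower (25.0% and 41.7%, against 30.8% and 30.9% of all tested genes). In the level range of the cytosolic synthetases these background shares were 33.2% and 42.7%. The 4 with the smallest p were Eif2ak3 (1.10, SE 0.0777), the reticulum stress kinase PERK, Eif2s1 (-0.52, SE 0.0520), the alpha subunit of eIF2, Eif2b4 (-0.50, SE 0.0577), a subunit of its exchange factor, and Eif2ak2 (-0.80, SE 0.0945), the kinase PKR.

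The 2 histidyl genes lie head to head. In GRCr8 Hars1 (chromosome 18, 28655669 to 28672712, minus strand) and Hars2 (28672810 to 28682367, plus strand) point away from each other with 97 bases between them. Those bases, shown because they are all that separates the 2 gene models, hold 6 CG dinucleotides, printed in capitals on the plus strand.
Between Hars1 and Hars2, chr18:28672713-28672809: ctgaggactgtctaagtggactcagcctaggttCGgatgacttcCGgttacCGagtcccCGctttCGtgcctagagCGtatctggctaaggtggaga

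Values of the 2 neighbours differed. Hars1 fell, as given above, while Hars2 had 16.2, 15.6 and 18.9 CPM in the controls and 18.4, 17.2 and 20.4 CPM after knockdown (log2 fold change 0.15, SE 0.0997, edgeR adjusted p 0.213), with overlap, and the difference in their log2 ratio is the 0.61 given for the histidine pair. Neither promoter window held the ATF4 element or the E-box.

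Genes that act beside the synthetases gave the wider setting. Among 6 synthetase-like and proofreading genes, 1 was higher and 2 were lower (16.7% and 33.3%, against 30.8% and 30.9% of all tested genes). Tars3, a cytosolic enzyme closely related to Tars1 that falls outside the symbol rule, had 20.2, 21.6 and 19.1 CPM in the controls and 10.3, 10.1 and 9.67 CPM after knockdown (log2 fold change -1.02, SE 0.1001, edgeR adjusted p 7.70e-09), while Tars1 was at 0.00. Aarsd1, an editing protein that clears mischarged alanine tRNA, had 13.04, 17.3 and 13.3 CPM in the controls and 22.6, 23.0 and 24.5 CPM after knockdown (log2 fold change 0.68, SE 0.103, edgeR adjusted p 4.43e-06). Prorsd1 differed by -0.43 on the log2 scale (SE 0.162, edgeR adjusted p 0.0251), and Dtd1 (0.02), Dtd2 (0.17) and Ptrhd1 (0.08) were not called.

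Mitochondria have no glutaminyl enzyme of their own and make that charged tRNA by converting glutamate on it, through the amidotransferase of Gatb, Gatc and Qrsl1. On the list of 5 amidotransferase and formylation genes, 1 was higher and 1 lower (20.0% each, against 30.8% and 30.9% of all tested genes). Gatb had 14.0, 14.2 and 15.0 CPM in the controls and 23.1, 20.4 and 27.0 CPM after knockdown (log2 fold change 0.71, SE 0.102, edgeR adjusted p 2.75e-06). Gatc had 72.7, 72.6 and 68.4 CPM in the controls and 55.9, 56.5 and 57.8 CPM after knockdown (log2 fold change -0.33, SE 0.0567, edgeR adjusted p 2.73e-05). The subunits of this enzyme moved in opposite directions, with Qrsl1 at 0.26 (SE 0.156) and not called. Mtfmt, which formylates the initiator methionyl tRNA (0.20, SE 0.0958), and Pdf, which removes the formyl group (-0.07, SE 0.0968), were not called. For Mtfmt every knockdown library still lay above every control (edgeR adjusted p 0.0716), while Pdf overlapped between groups.

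Selenocysteine is made on a tRNA first charged by Sars1. Of 6 genes of this route, 2 were lower and 1 higher (33.3% and 16.7%, against 30.9% and 30.8% of all tested genes). Pstk, the kinase that follows Sars1, had 12.3, 14.3 and 13.3 CPM in the controls and 4.13, 3.70 and 3.63 CPM after knockdown (log2 fold change -1.80, SE 0.139, edgeR adjusted p 1.46e-10), a wider fall than that of any synthetase. Sepsecs, which then places the selenium, had 9.59, 8.51 and 8.25 CPM in the controls and 4.57, 5.18 and 4.91 CPM after knockdown (log2 fold change -0.85, SE 0.143, edgeR adjusted p 2.17e-05). Eefsec, the elongation factor for selenocysteine, differed by 0.39 on the log2 scale (SE 0.106, edgeR adjusted p 0.00275). Sephs1 (-0.15, edgeR adjusted p 0.0990) and Sephs2 (-0.15, edgeR adjusted p 0.0753) were not called, although every knockdown library lay under every control. Secisbp2 (-0.01) was not called and overlapped between groups.

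Downstream of charging, translation factors were counted in 2 lists of unlike content: the cytosolic list holds elongation, termination and recycling factors with the regulator kinase Eef2k (0.41), while the mitochondrial list also holds the initiation factors Mtif2 (0.06, not called) and Mtif3 (-0.32). Of all tested genes 30.8% were higher and 30.9% lower. In the level range of the cytosolic synthetases, which holds part of the cytosolic list, 33.2% were higher and 42.7% lower. In that of the mitochondrial synthetases 34.4% were higher. Of 11 cytosolic factors 8 were lower (72.7%) and 3 higher (27.3%), with a median log2 fold change of -0.21. Eef1b2, which recharges eEF1A with GTP, had 346, 360.0 and 366 CPM in the controls and 232, 211 and 208 CPM after knockdown (log2 fold change -0.72, SE 0.0486). Eef1a1, the carrier of charged tRNA (-0.38, SE 0.0387), Abce1, the ribosome recycling factor (-0.41, SE 0.0480), and Eef1g (-0.31, SE 0.0402) were lower too. Of 10 mitochondrial translation factors 5 were higher (50.0%) and 2 lower (20.0%), with a median of 0.24. Mrrf, the mitochondrial ribosome recycling factor, had 19.9, 18.97 and 21.1 CPM in the controls and 34.1, 37.4 and 36.9 CPM after knockdown (log2 fold change 0.85, SE 0.0786), and Gfm2 (0.44, SE 0.0767), Tsfm (0.38, SE 0.0900) and Guf1 (0.39, SE 0.0929) were higher. Of 14 genes that process or modify mitochondrial tRNA 5 were higher (35.7%) and 3 lower (21.4%), with a median of 0.03. They included Trmu, a thiolating enzyme (1.13, SE 0.159), and Elac2, which trims the tRNA 3′ end (0.49, SE 0.0801), both higher, and Pus1, a pseudouridine synthase (-0.96, SE 0.0799), and Trmt10c, a subunit of mitochondrial RNase P (-0.48, SE 0.0656), both lower.

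**Figure D3:**
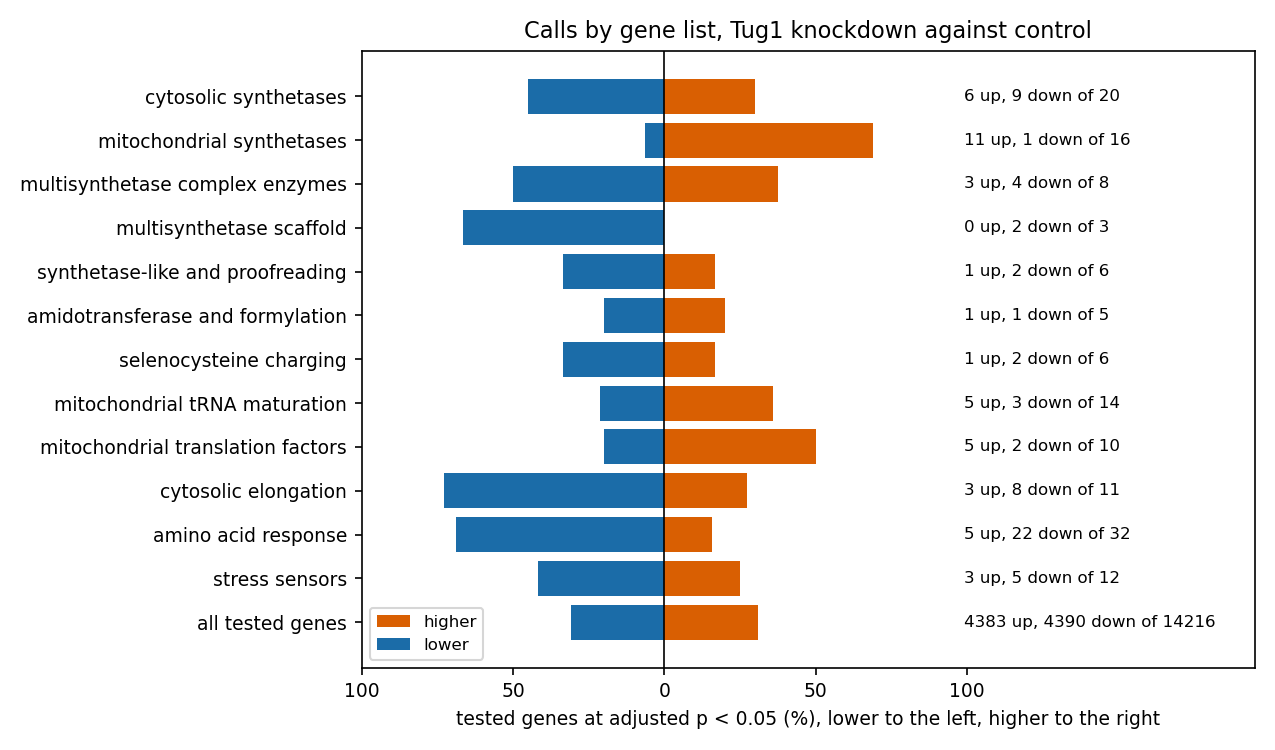
Bars give the percentage of tested genes of each list called higher (right, orange) or lower (left, blue) at an adjusted p under 0.05, with the counts beside them and all tested genes in the bottom row. The mitochondrial synthetases have 11 higher and 1 lower of 16, and the amino acid response list has 5 higher and 22 lower of 32.

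Longer genes tended to have higher values after knockdown, and this touched the members. Genomic span in GRCr8 was known for 35 of them, all but Gars, with a median of 24.4 kb, against 22.4 kb for the 13084 tested genes with a span. Across genes, which are not independent replicates and share the same libraries, Spearman's correlation of log2 fold change with span was 0.42 over the 35 members, 0.42 over the cytosolic, 0.43 over the mitochondrial and 0.27 over all tested genes with a span. The median span of the mitochondrial genes was 29.8 kb and that of the cytosolic genes 23.8 kb. With an offset that removed the trend on span from each library, 12 members were higher and 9 lower, 8 of the mitochondrial genes among the higher ones, and the mitochondrial median was 0.32 in place of 0.44. Fars2 has the longest span of the set, 427 kb, and its log2 fold change went from 0.53 to 0.13 and was no longer called. Rars2, Wars2, Wars1 and Mars1 also lost the call, at 0.26, 0.29, 0.09 and -0.11. Eprs stayed called at 0.14, while Qars1 at 0.21 and Farsb at -0.26 moved further from 0. Aars2, with a short span of 11.7 kb, stood at 1.12 and Yars2 at -0.42.

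**Figure D4:**
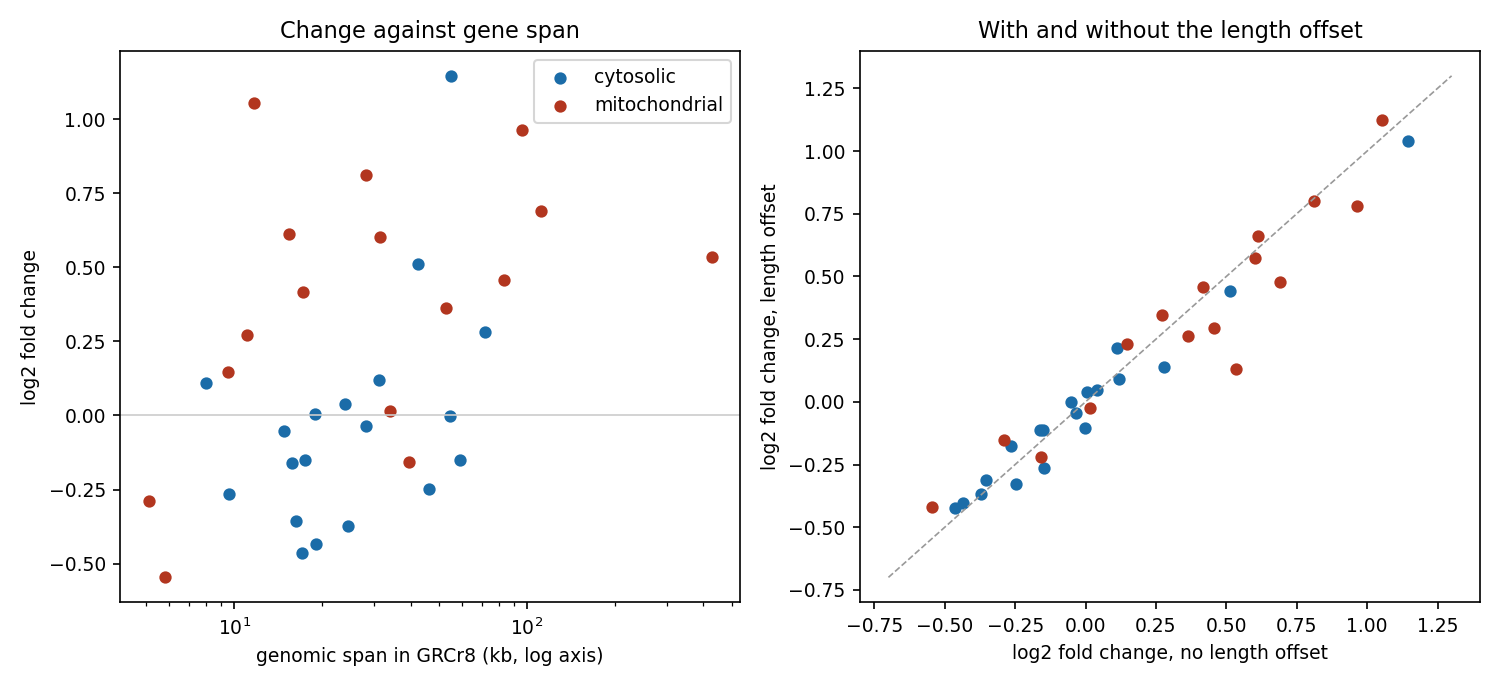
The left panel plots the log2 fold change of 35 synthetase genes against their genomic span in kb on a log axis, blue for cytosolic and red for mitochondrial genes. The right panel plots the log2 fold change with the length offset against the one without it, with a dashed line of equality; the point farthest below the line is Fars2, at 0.53 without and 0.13 with the offset.

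Reads could not always be assigned to 1 gene with certainty, since the treatment of strand and of reads with several matches in the counting is not given in the sources used here. In GRCr8, 14 of the 35 members with an entry overlap another annotated gene, and 7 overlap a named one. The named neighbours include Ddit3 beside Mars1, Ddx19b beside Aars1, S100pbp beside Yars1, Ccer2 beside Sars2, and Orc3 and Slc35a1 beside Rars2. Values of these members are uncertain to that extent, and Mars1 and Ddit3, which lie within the same stretch, were both lower (-0.15 and -0.37).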

How the data were processed

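Messenger RNA was sequenced from 6 libraries of H9c2 cells, 3 per group, made with a stranded poly-A kit from 500 ng of RNA with integrity numbers of at least 9, per the labels' protocols. The authors deposited raw whole-number counts per gene, 1 column per library, without pooling. FastQC 0.11.7, fastp 0.14.1 and STAR 2.5 are named in the submitters' processing notes. The counting tool, genome build, annotation, use of strand and treatment of reads with several matches are not given in the sources used here. The table held 40456 named genes, of which 14397 had no count, and 0 columns of other samples.

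Counts were fitted in R 4.3.3 with edgeR 4.0.16 (TMM scaling, expression filter with a minimum count of 10 and a minimum total of 15, quasi-likelihood test with a prior count of 0.125, two-sided), using all 6 libraries, and p-values were adjusted over 14216 genes. At this depth 3 counts correspond to 0.217 to 0.232 CPM, for counting error only. The common biological coefficient of variation was 0.0472. Log2 fold changes are knockdown over control, levels are CPM on the TMM scale, and standard errors come from the fold change and its F statistic. Transcript lengths were not used here. Sums over genes, shares of a sum, level ranges and ratios between genes therefore compare counts, not numbers of molecules.

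Alternatives were DESeq2 size factors, library totals, the Wald test of DESeq2 1.42.0, limma-voom (limma 3.58.1, prior count 0.5), no filter, a filter at 1 CPM on average, a threshold of 0.01, a block for the replicate number, a lowess offset (span 0.3) on genomic span with and without the block, each library left out, and the cytosolic set without Gars and Kars. The script was tested on simulated counts with the same dispersion for every gene. There edgeR called 24.5% of log2 changes of 0.25 and 63% of those of 0.5 in the right direction. Changes of these sizes can therefore be missed.

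The members and gene lists were chosen with earlier results of these data known. Every member is counted, a few results are not reported here by name, and the rest are given by rule: members called or without overlap are given per library, and of each related list the 4 called genes with the smallest p, or all genes of a list of 6 or fewer. Spans, neighbours and promoter windows came from RefSeq tables of GRCr8, which matched 35 members, 3 of them by an older symbol. Protein sequences were not used here, so the planned identity of the enzyme pairs was not computed.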

Additional observations from a re-analysis of the deposited data

How the results depend on the processing

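Of 27 called members, 16 kept direction and call in every alternative run for them (Gars has no span and was not in either length fit): 9 of the 17 rises and 7 of the 10 falls, with 5 of 11 mitochondrial rises among them. Over 574 combinations of a member and an alternative, 505 kept both, 51 lost the call, 2 gained it and 16 changed sign, all of these in uncalled genes. The cytosolic median log2 fold change was 0.00993 with library totals, -0.105 with the length offset and -0.104 with the length offset and the replicate block. The mitochondrial median was 0.490, 0.320 and 0.323 under the same settings, and 0.385 to 0.444 with 1 library left out. An adjusted p under 0.01 left 11 members higher, 7 of them mitochondrial. Mitochondrial genes called lower numbered 1 to 2 with 1 library left out, the latter without knockdown replicate 1. DESeq2's Wald test called 13 members higher and 10 lower. The length offset called 12 higher and 9 lower, in a fit that lacked Gars, a rise of the main analysis without a span. Lars1 turned positive with library totals (0.0527), limma-voom (0.000259), the 1 CPM filter (0.00110) and the replicate block (0.000151), and ranged from -0.0148 to 0.0268 with 1 library left out. Library totals also turned Vars1 (0.00101) and Yars1 (0.0189). With 1 library left out Yars1 ranged from -0.0901 to 0.0262 and Tars1 from -0.0194 to 0.0307. Tars1 was -0.00616 without the filter. Iars2 was -0.0251 with the length offset and -0.0253 with the length offset and the replicate block. The cause of these shifts was not tested. No pairing by replicate number was visible, with correlations of -0.00531, 0.0298 and 0.0270 between same-numbered libraries. The labels do not say whether these numbers mark a shared plate or day. With the replicate block 17 members were higher and 10 lower and 8848 genes were called in all. The count of all called genes ran from 7353 to 8987. Mitochondrial members had as few as 29 counts in a library, which limits their precision.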
